A study of Mus musculus with 10 samples.

Results

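Genes that span more than 500 kb of the genome were examined in the lumbar spinal cord of mouse embryos labelled *Dot1l*-cKO and of their control littermates at E12.5. A gene was taken when it was protein-coding and autosomal, when its annotated span from first to last base was over 500 kb, and when its mean over the 10 embryos was at least 1 CPM, that is the count of the gene scaled to a fixed total of counts per embryo. Genes whose symbols belong to 17 other groups (glutamate and GABA receptors, potassium and calcium channels, axon guidance families, collagens, synaptic vesicle genes and *Aff3*) were left out, which removed 23 genes of this length and level. The rule gave 177 of the 54146 genes in the deposited table, and 18 further genes of this length were under 1 CPM. All 177 passed the expression filter of the test. Their spans ran from 502 kb in *Edil3* to 2961 kb in *Fgfr2*, with a median of 736 kb, and 48 were over 1 Mb.

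DOT1L is the enzyme that methylates lysine 79 of histone H3, a mark laid down along the bodies of transcribed genes behind the start site. Very long genes consist almost wholly of introns and take RNA polymerase many hours to transcribe, so they are often used to ask whether a factor bears on elongation. In the nervous system they are known for encoding adhesion molecules, synaptic organisers and ion channel partners of neurons. The comparison made here asks whether genes of this length change with the *Dot1l* genotype differently from shorter genes of the same level and GC content.

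The embryos labelled *Dot1l*-cKO were Wnt1cre2/+; Dot1lfl/fl, so that Cre recombinase, driven by Wnt1 sequences active in the dorsal neural tube and neural crest, acts on both floxed alleles in those cells. For each of the 10 embryos the labels give B6.Cg-E2f1Tg(Wnt1-cre)2Sor/J as the strain background, and the dorsal root ganglia stayed on the cord. Litter 1 held 3 of these embryos and 3 controls of genotype +/+; Dot1lfl/fl, and litter 2 held 2 of them and 2 controls of genotype +/+; Dot1lfl/+, so the litter and the number of floxed control alleles cannot be told apart. Only the *Dot1l*-cKO embryos carried the transgene, so its presence and the loss of *Dot1l* cannot be told apart either.

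Total counts lay between 40949585 and 68928443 per embryo. The 177 genes together took 0.956 to 1.22% of them. The summed counts of *Dot1l* over the whole gene do not check the genotype (106 ± 6.18 CPM with the *Dot1l*-cKO label against 94.0 ± 7.85 CPM in controls, SD, n = 5 each), so the embryos are named by their label. The sum of 4 Y-linked genes was 156 and 172 CPM in the *Dot1l*-cKO embryos of litter 2 and at most 1.16 CPM in the other 8 embryos, so in litter 2 sex and genotype cannot be told apart. Markers of neurons summed to 7630 to 8600 CPM over the 10 embryos and those of neural progenitors to 2370 to 3450 CPM, so both cell classes of the labelled tissue were present. In tissue RNA, fewer cells of a type and less RNA per cell cannot be told apart.

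The genes over 500 kb are set apart by structure. Exons made up a median of 1.28% of their span, against 18.5% in the 12841 protein-coding autosomal genes of at most 500 kb and at least 1 CPM, which are called the shorter genes below. Their longest intron had a median of 203 kb, against 7.16 kb. They also had a lower exonic GC content (median 44.9 against 49.7%) and a larger exonic length (10506 against 4612 bases), while the median level was alike (34.4 against 33.4 CPM). Per kb of exon, the scale on which genes can be compared, the highest mean levels were those of *Rbfox1* (47.3 CPM per kb), an RNA-binding splicing regulator, *Ctnna2* (37.3), a catenin that links cadherins to actin, *Tenm3* (24.0), a teneurin adhesion receptor, *Atrnl1* (22.8) and *Ank3* (22), the ankyrin of the axon initial segment. The lowest of these levels among the genes named for their length was 0.284 CPM per kb, in the receptor gene *Lrp1b*.

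Span depends on the annotation. In GENCODE M21, 165 of the 177 genes have a protein-coding transcript that itself runs over 500 kb, and 166 of the 174 found in RefSeq by symbol have a RefSeq length over 500 kb. *Fgfr2* has the longest span of all through 1 extended transcript with an intron of 2820 kb, while its RefSeq length is 104 kb. *Slc7a11* (551 kb) and *Rasgef1b* (512 kb) are likewise only 134 and 35.5 kb in RefSeq. The 5 genes just inside the threshold, from 502 kb in *Edil3* to 512 kb in *Rasgef1b*, had log2 fold changes between -0.16 (*Dock1*) and 0.38 (*Car10*). The 5 just outside, from 488 kb in *Dennd1a* to 499 kb in *Pde1c*, had log2 fold changes between -0.05 (*Prkce*) and 0.41 (*Pde1c*).

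Of the 177 genes, 8 rose and 3 fell in the embryos labelled *Dot1l*-cKO (quasi-likelihood test of edgeR, litter in the model, Benjamini-Hochberg adjusted p below 0.05 over 19773 tested genes). This is 4.52% higher and 1.69% lower, beside 1.9% higher and 1.09% lower over all tested genes. The shares were 2.38 and 1.22% of the shorter genes, and 3.84 and 0.68% of those under 10 kb. Within the 177 they were 2.33 and 0.775% of the 129 genes of 500 kb to 1 Mb. Of the 48 over 1 Mb they were 10.4 and 4.17%. Of the 23 long genes left out by symbol, 0 passed. The 8 that rose were *Cntn4*, *Cntn5*, *Cntnap2*, *Fstl5*, *Fgf12*, *Lingo2*, *Asic2* and *Car10*, with log2 fold changes from 0.17 to 0.45. The 3 that fell were *Adgrv1*, *Zfhx3* and *Fgfr2*. Adjusted p-values of the 11 lay between 0.0263 and 0.0492, close to the threshold. All 11 had the same sign in both litters, as had 119 of the 177. They were picked from a fit to both litters, so this is no separate test. Leaving out 1 embryo often ended these calls, and the calls over all genes with them: 0 of the 11 passed without embryo Mut_181-2, Mut_190-6 or Ctr_181-9, 1 without Ctr_181-4 or Ctr_190-5, 2 without Ctr_181-5, 4 without Ctr_190-7, and 7 to 9 without each of the other 3, while the calls over all genes went from 591 to between 53 and 1377. The sign of each of the 11 was the same in all 10 of these fits, which share most of their embryos. With the size factors of DESeq2 in edgeR *Cntnap2* had an adjusted p of 0.0504, and limma-voom gave *Fstl5*, *Asic2*, *Cntnap2* and *Lingo2* adjusted p-values of 0.0526, 0.0563, 0.0567 and 0.0630.

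A pair of contactins and a contactin-associated protein were among the genes that rose. *Cntn4* (chromosome 6 from 105677660 to 106699310, GRCm38, plus strand, 1022 kb) encodes a GPI-anchored adhesion molecule of axons. In litter 1 it was at 49.6, 38.1 and 41.0 CPM in the *Dot1l*-cKO embryos and at 33.8, 33.4 and 32.9 CPM in controls. In litter 2 it was at 18.2 and 19.9 CPM against 16.6 and 15.6 CPM. The *Dot1l*-cKO embryos were above the controls within both litters, but all embryos of litter 2 were below all embryos of litter 1. The log2 fold change was 0.32 ± 0.07 (standard error, n = 5 against 5, edgeR adjusted p = 0.0354).

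*Cntn5* (chromosome 9 from 9660891 to 10904775, minus strand, 1244 kb), a second contactin, had a low level. The *Dot1l*-cKO embryos were at 9.57, 8.11 and 9.07 CPM in litter 1 and 4.77 and 4.59 CPM in litter 2. The controls were at 7.92, 5.60 and 5.69 CPM in litter 1 and 3.60 and 3.42 CPM in litter 2. The genotypes did not overlap within either litter, and the log2 fold change of 0.45 ± 0.11 was the largest of the 8 (edgeR adjusted p = 0.0422).

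*Cntnap2* (chromosome 6 from 45059357 to 47304213, plus strand, 2245 kb) encodes CASPR2, a neurexin-like protein that clusters potassium channels on axons, and is the third longest of the 177 genes. Its levels were 132, 117 and 127 CPM in the *Dot1l*-cKO embryos of litter 1 and 92.2 and 94.0 CPM in those of litter 2. The controls were at 110, 109 and 108 CPM in litter 1 and at 87.4 and 84.3 CPM in litter 2. The controls of litter 1 lay within 2 CPM of each other, and the log2 fold change of 0.17 ± 0.04 was the smallest of the 8 (edgeR adjusted p = 0.0492). *Cntnap5a*, of the same family, was also above controls in every embryo of either litter, without passing the test (0.27, adjusted p = 0.0631; named after its values were seen). *Cntnap5b*, also among the 177 genes, overlapped in both litters (-0.06, edgeR adjusted p = 0.836). Of shorter genes of the family, *Cntnap1*, *Cntnap3* and *Cntnap4* were at -0.10, -0.13 and 0.02 (edgeR adjusted p = 0.433, 0.742 and 0.903).

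The stretches upstream of the start are shown for *Cntn5* and *Fgf12*, another gene that rose, as examples of the DNA in front of such long genes. Each line gives the 250 bases before the RefSeq start that lies at or next to the 5′ end of the GENCODE gene (GRCm38.p6, minus strand, 5′ to 3′). No base overlaps a GENCODE exon, and every CG dinucleotide is in capitals.
*Cntn5*, chr9:10904776-10905025: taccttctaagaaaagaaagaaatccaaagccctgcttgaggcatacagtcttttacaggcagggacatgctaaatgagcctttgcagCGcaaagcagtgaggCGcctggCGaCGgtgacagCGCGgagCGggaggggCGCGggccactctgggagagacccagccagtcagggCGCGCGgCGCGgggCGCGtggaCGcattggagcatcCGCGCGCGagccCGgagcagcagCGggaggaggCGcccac
*Fgf12*, chr16:28753244-28753493: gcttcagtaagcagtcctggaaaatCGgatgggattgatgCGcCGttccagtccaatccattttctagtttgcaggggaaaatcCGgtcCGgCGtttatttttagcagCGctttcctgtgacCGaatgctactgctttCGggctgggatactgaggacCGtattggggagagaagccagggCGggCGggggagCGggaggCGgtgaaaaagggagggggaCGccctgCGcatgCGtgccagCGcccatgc
*Cntn5* holds 24 such dinucleotides and *Fgf12* 18. Over the 105 of the 177 genes with a listed start within 1 kb of the GENCODE 5′ end the median was 17 (quartiles 9 and 27), and 73.3% held 10 or more. The 9149 shorter genes with such a start had a median of 16, and 77.6% of them held 10 or more, as did 50.8% of all 17273 genes with one. More than 1 RefSeq start was listed for 38.4% of the 138 long genes with any entry and for 20.6% of the shorter genes, and since reads were counted per gene, transcripts from different starts cannot be told apart.

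*Fgf12* (chromosome 16 from 28160098 to 28753068, minus strand, 593 kb) encodes an intracellular FGF homologue that binds voltage-gated sodium channels, and had the lowest p of the 177 genes. The *Dot1l*-cKO embryos were at 38.9, 34.9 and 35.5 CPM in litter 1 and 27.3 and 29.9 CPM in litter 2. The controls were at 29.8, 27.9 and 27.3 CPM and at 24.9 and 25.1 CPM. No *Dot1l*-cKO embryo overlapped the controls of its litter, and the log2 fold change was 0.30 ± 0.06 (edgeR adjusted p = 0.0263). *Lingo2* (chromosome 4 from 35706647 to 36951747, minus strand, 1245 kb), a leucine-rich repeat membrane protein, was at 23.3, 17.3 and 18 CPM against 16.7, 14.0 and 14.8 CPM in litter 1. In litter 2 it was at 9.78 and 10.1 CPM against 7.39 and 8.10 CPM. It too did not overlap within either litter, and its log2 fold change was nearly the same in both, 0.36 and 0.36, with 0.36 ± 0.09 over both (edgeR adjusted p = 0.0475).

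*Asic2* (chromosome 11 from 80880169 to 81968457, minus strand, 1088 kb), a proton-gated cation channel subunit, was at 33.4, 29.0 and 23.5 CPM in the *Dot1l*-cKO embryos of litter 1 against 23.7, 22.5 and 20.9 CPM, and at 16.6 and 19.2 CPM in litter 2 against 13.1 and 13.4 CPM. The genotypes overlapped in litter 1 by 1 embryo, and the log2 fold change was 0.39 ± 0.09 (edgeR adjusted p = 0.0354). After correcting each library for a trend with exonic GC content it was 0.25, with an adjusted p of 0.0925, and the call was lost. *Car10* (chromosome 11 from 93098028 to 93601749, plus strand, 504 kb), a secreted carbonic anhydrase-like protein that binds neurexins, was at 63.6, 50.4 and 53.2 CPM against 42.9, 40.7 and 41.3 CPM in litter 1 and at 22.5 and 27.6 CPM against 22.1 and 18.1 CPM in litter 2. The groups were apart in both litters, though by less than 1 CPM in litter 2 (0.38 ± 0.08, edgeR adjusted p = 0.0306). *Fstl5* (chromosome 3 from 76074270 to 76710019, plus strand, 636 kb), a follistatin-like secreted protein, was at 105, 81.4 and 98.8 CPM against 74.5, 71.4 and 69.8 CPM in litter 1 and at 57.1 and 60.0 CPM against 49.7 and 57.1 CPM in litter 2, where the groups met (0.30 ± 0.07, edgeR adjusted p = 0.0479).

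The 3 genes that fell are a receptor of the adhesion family, a growth factor receptor and a transcription factor. *Adgrv1* (chromosome 13 from 81095068 to 81633154, minus strand, 538 kb), an adhesion G protein-coupled receptor with a very large extracellular part, was at 53.8, 70.4 and 69.8 CPM in the *Dot1l*-cKO embryos of litter 1 against 91.1, 77.7 and 114 CPM. In litter 2 it was at 115 and 119 CPM against 176 and 140 CPM. All *Dot1l*-cKO embryos lay under the controls of their litter, and the log2 fold change was -0.50 ± 0.10 (edgeR adjusted p = 0.0283).

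*Fgfr2* (chromosome 7 from 130162451 to 133123350, minus strand), a receptor for fibroblast growth factors, was at 44.6, 52.3 and 48.7 CPM against 51.9, 61.7 and 58.5 CPM in litter 1 and at 81.5 and 69.8 CPM against 90.9 and 96.3 CPM in litter 2 (-0.27 ± 0.06, edgeR adjusted p = 0.0411). It overlapped by 1 embryo in litter 1, and with its RefSeq length it would not be among these genes. *Zfhx3* (chromosome 8 from 107942644 to 108961630, plus strand, 1019 kb), a zinc finger homeobox transcription factor, was at 124, 144 and 126 CPM against 169, 196 and 209 CPM in litter 1 and at 199 and 215 CPM against 251 and 202 CPM in litter 2. Its groups were apart in litter 1 and overlapped in litter 2 (-0.38 ± 0.09, edgeR adjusted p = 0.0419).

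**Figure D1:**
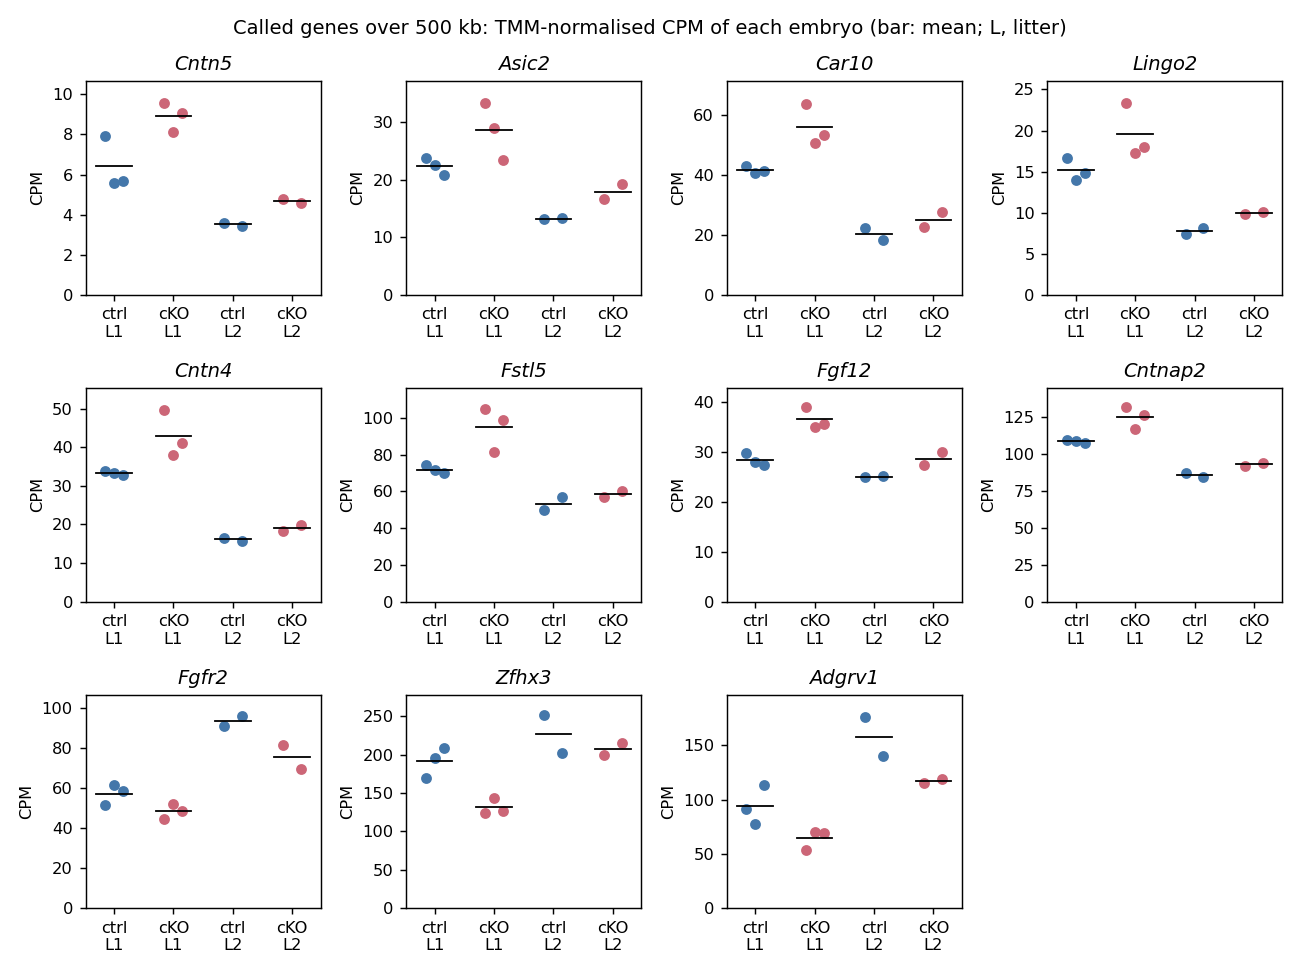
Level of the 11 genes over 500 kb with an adjusted p below 0.05, in TMM-normalised CPM (linear vertical axis from 0), for each embryo (points) by genotype (ctrl, control; cKO, labelled *Dot1l*-cKO) and litter (L1, L2), with the mean of each as a bar. The 8 genes that rose are lower in litter 2 than in litter 1 in both genotypes, and the 3 that fell are higher in litter 2. Of all 177 genes 55.9% were lower and 9.6% higher in litter 2 by edgeR.

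Counting embryos without a test, 10 of the 177 genes had each *Dot1l*-cKO embryo above the controls within both litters and 4 had each below, beside 3.8% and 4.15% of all tested genes. Beyond the genes already given, the higher ones included *Ralyl*, an RNA-binding protein gene (0.34 ± 0.09, edgeR adjusted p = 0.0519), *Cdh13*, a GPI-anchored cadherin, and *Mgat4c*, a glycosyltransferase (0.23 and 0.30, adjusted p = 0.0877 and 0.0743; these last named after their values were seen). The lower ones were *Mecom*, a zinc finger transcription factor (-0.30 ± 0.08, adjusted p = 0.0506), *Pcdh15*, a protocadherin (-0.35 ± 0.10, adjusted p = 0.0730), and *Cdk14*, a cyclin-dependent kinase (-0.07 ± 0.04, adjusted p = 0.351), with *Adgrv1*. The largest log2 fold change of the 177 genes was that of *Arhgap15* (0.74 ± 0.22, adjusted p = 0.0744), which was under 2.5 CPM in every embryo.

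By role, the median log2 fold change over the 51 cell adhesion and recognition genes was 0.11, and by edgeR 4 rose and 0 fell (7.84 and 0%, beside 1.9 and 1.09% of all tested genes). At an unadjusted p under 0.05 these were 18 and 5 genes (35.3 and 9.8%, beside 11.1 and 10.6% of all tested genes). DESeq2 called 8 higher and 2 lower (*Fat3* and *Pcdh15*), where it called 4.74 and 3.56% of the genes it gave an adjusted p, and limma-voom 2 and 0. The list holds the adhesion G protein-coupled receptors *Adgrb3* and *Adgrl3* but not *Adgrv1*, which fell, so the 0 depends on how the list was drawn as well as on the tool. The 4 likewise count *Fstl5*, which the list places among adhesion genes though it encodes a secreted protein. The 8 that DESeq2 called higher count *Hs6st3*, a sulfotransferase gene. Several of the best known members did not pass the edgeR test: *Nrxn3*, a presynaptic neurexin, was at -0.16 ± 0.05 (adjusted p = 0.0954). The neural IgLON adhesion genes had positive values without passing it, *Lsamp* 0.15 ± 0.07 (0.210), *Ntm* 0.15 ± 0.07 (0.239) and *Opcml* 0.23 ± 0.08 (0.122). Of the teneurins, *Tenm2* was at -0.02 ± 0.05 (0.868), *Tenm3* at 0.16 ± 0.07 (0.219) and *Tenm4* at -0.26 ± 0.12 (0.212). *Ctnna2* (0.03 ± 0.05, 0.822), *Lrp1b* (-0.02 ± 0.14, 0.946) and the receptor phosphatase gene *Ptprd* (-0.05 ± 0.04, 0.520) were close to 0.

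In the 26 scaffold, cytoskeleton and vesicle genes the median was -0.03 and 0 passed the edgeR test in either direction. At an unadjusted p under 0.05, 4 were higher and 4 lower (15.4% each, beside 11.1 and 10.6% of all tested genes). DESeq2 called *Magi2* higher and *Ank2* lower, and limma-voom called 0. Over all genes with an adjusted p, DESeq2 called 4.74% higher and 3.56% lower, and limma-voom 1.25 and 0.9%. These shares stand beside the counts of both tools in every list. Their postsynaptic scaffolds *Dlg2* (0.24 ± 0.09, edgeR adjusted p = 0.146) and *Magi2* (0.19 ± 0.05, 0.0747) had positive values, and *Ank3* a negative one (-0.21 ± 0.08, 0.160). In the 29 signalling and membrane transport genes the median was 0.07, with 3 higher and 1 lower by edgeR (10.3 and 3.45%, beside 1.9 and 1.09% of all tested genes), 4 and 1 by DESeq2 and 1 and 1 by limma-voom. The 3 include *Lingo2*, a leucine-rich repeat membrane protein, and the list also holds *Smyd3*, a lysine methyltransferase. These counts too depend on how the list was drawn. There the neuregulin *Nrg1* and its receptor *Erbb4* were at -0.11 ± 0.06 (0.291) and -0.10 ± 0.07 (0.406).

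In the 20 genes listed as transcription factors and RNA-binding proteins the median was -0.03. By edgeR 0 were higher and 1 lower (0 and 5%, beside 1.9 and 1.09% of all tested genes). At an unadjusted p under 0.05 these were 1 and 5 genes (5 and 25%, beside 11.1 and 10.6% of all tested genes). DESeq2 called *Ccser1* higher and *Mecom*, *Zbtb20* and *Zfhx3* lower, and limma-voom 0 and 1. *Rbfox1* was at 0.08 ± 0.06 (edgeR adjusted p = 0.442), *Auts2* at 0.07 ± 0.06 (0.533), *Npas3* at -0.01 ± 0.06 (0.946), *Sox5* at -0.07 ± 0.07 (0.561), *Sox6* at -0.19 ± 0.06 (0.103) and *Zbtb20* at -0.38 ± 0.11 (0.0734). This list also holds *Rad51b*, *Ccser1* and *Cdkal1*, which are neither. The 20 enzymes and others had a median of 0.07 with 0 called by edgeR, 2 higher by DESeq2 (*Dpp10* and *Mgat4c*) and 0 by limma-voom. At an unadjusted p under 0.05, 4 were higher and 0 lower (20 and 0%, beside 11.1 and 10.6% of all tested genes). The 31 genes with no role listed had a median of 0.03 with 1 higher (*Car10*) and 1 lower (*Adgrv1*) by edgeR (3.23% each, beside 1.9 and 1.09% of all tested genes). The genes given here for their DESeq2 calls were named after their values were seen.

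**Figure D2:**
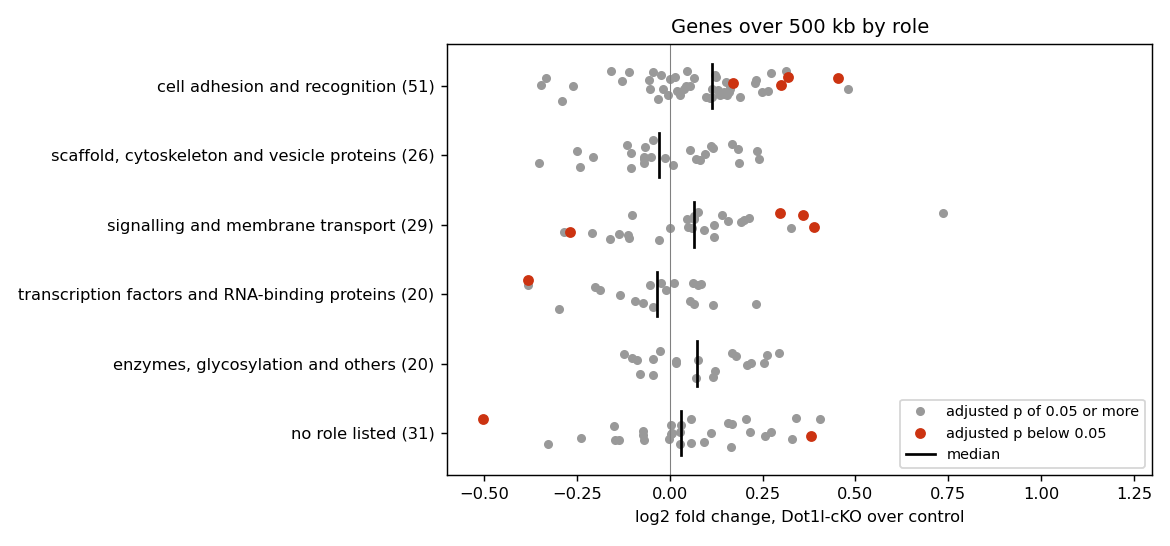
Log2 fold change of *Dot1l*-cKO over control (horizontal axis) for each of the 177 genes (points), by role with the number of genes in brackets. Black bars are medians, and red points have an adjusted p below 0.05. The adhesion genes have the highest median, 0.11, and each list spreads on both sides of 0.

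Over the whole set the difference between genotypes was small. The median log2 fold change of the 177 genes was 0.05 (quartiles -0.07 and 0.16), with 110 above 0 and 67 below, beside a median of -0.01 over all tested genes and -0.01 over the shorter genes. It was 0.05 for the 129 genes of 500 kb to 1 Mb and 0.10 for the 48 over 1 Mb. The medians of the shorter genes were 0.04 under 10 kb, -0.01 at 10 to 30 kb, -0.04 at 30 to 100 kb, -0.04 at 100 to 200 kb and 0.001 at 200 to 500 kb. Of the genes under 10 kb 62.3% were above 0, beside 62.1% of the 177. After the same GC correction the median was 0.08 for the 177 genes and 0.01 for genes under 10 kb, and in litter 2 alone it was 0.01 and 0.08. The median of the shortest genes was thus lower after the GC correction than before it. In litter 2 the 177 genes were still above the classes from 30 to 500 kb, whose medians there were -0.05, -0.04 and -0.01.

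To compare genes of equal level and GC content, each gene was set against the median of all shorter genes in its band, a doubling of mean CPM and 4 percentage points of exonic GC. For the 176 genes with at least 10 shorter genes in their band, the median of the differences was 0.08 on the log2 scale (quartiles -0.04 and 0.19), with 116 genes above their band and 60 below. It was 0.05 in bands of level alone, 0.09 in bands of level and exonic length, 0.07 against shorter genes of 100 to 500 kb and 0.08 against those under 100 kb. The 8 genes that rose were above their band by 0.23 (*Cntnap2*) to 0.44 (*Car10* and *Cntn5*). The 3 that fell were under it by 0.24 (*Fgfr2*) to 0.45 (*Adgrv1*). These genes were picked by a test of the same log2 fold changes, and their band medians ran only from -0.075 (*Fstl5*) to 0.084 (*Asic2*). Their side of the band thus followed from the call and is no separate test.

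The values are given by litter as well, and the difference between the litters in the median was not tested. With each litter fitted alone, the median log2 fold change of the 177 genes was 0.11 in litter 1, with 120 genes above 0, and 0.01 in litter 2, with 92 above 0. For the 48 genes over 1 Mb it was 0.17 and 0.01. The difference from the bands was 0.11 and 0.06. Taken per embryo, as the median over the 177 genes of log2(CPM + 0.5) minus the mean of the controls of the litter, Mut_181-2 was at 0.20, Mut_181-3 at 0.02 and Mut_181-7 at 0.06, against 0.03, -0.06 and 0.03 in the controls of litter 1. In litter 2 the *Dot1l*-cKO embryos were at -0.04 and 0.04 and the controls at 0.05 and -0.05. Mut_181-2 lay furthest above the controls, Mut_181-7 lay just above the highest of them, and the other 3 lay within their range. Without Mut_181-2 the median log2 fold change was 0.025 and the median difference from the bands 0.04. The same embryo medians over the shorter genes stayed between -0.02 and 0.01.

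**Figure D3:**
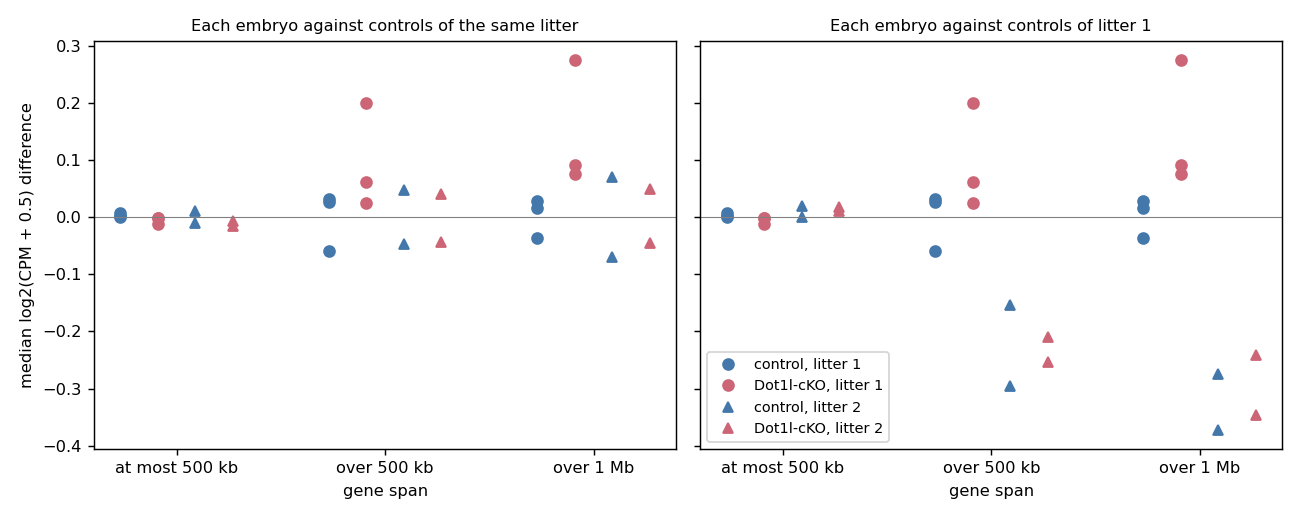
Median over genes of log2(CPM + 0.5) minus the mean of the controls of the same litter (left) or of litter 1 (right), for each embryo (circles, litter 1; triangles, litter 2) and for genes of at most 500 kb, over 500 kb and over 1 Mb. At left Mut_181-2 stands at 0.20 for genes over 500 kb, and at right all 4 embryos of litter 2 lie between -0.30 and -0.15.

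No gene passed the test of the litter by genotype interaction (0 of 177, edgeR adjusted p below 0.05, beside 0.0101% of all tested genes), while 20 of the 177 (11.3%) had an unadjusted p under 0.05, beside 8.19% of all tested genes. DESeq2 called 3, beside 0.552% of the genes it gave an adjusted p. These were *Sdk1*, *Lpp* and *Thsd7b*, named after their values were seen.

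The litters differed far more than the genotypes. Of the 177 genes, 99 were lower and 17 higher in litter 2 than in litter 1 (edgeR, adjusted p below 0.05), which is 55.9% and 9.6%, beside 17.8% lower and 16.9% higher over all tested genes. The median log2 difference was -0.26, beside -0.02 over all tested genes. In the size of their log2 values, 144 of the 177 genes differed more between litters than between genotypes. No such share is given over all tested genes, so this count cannot be read as particular to long genes. Against shorter genes of the same level and GC band the median was -0.32, with 137 of 176 genes below their band.

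The litter difference was graded by length. Its median was 0.001 under 10 kb, 0.02 at 10 to 30 kb, 0.03 at 30 to 100 kb, -0.01 at 100 to 200 kb, -0.11 at 200 to 500 kb, -0.23 at 500 kb to 1 Mb and -0.40 over 1 Mb. Per embryo, the median over the 177 genes relative to the controls of litter 1 was -0.25 and -0.21 in the *Dot1l*-cKO embryos of litter 2 and -0.15 and -0.30 in its controls, so both genotypes were shifted and overlapped.

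**Figure D4:**
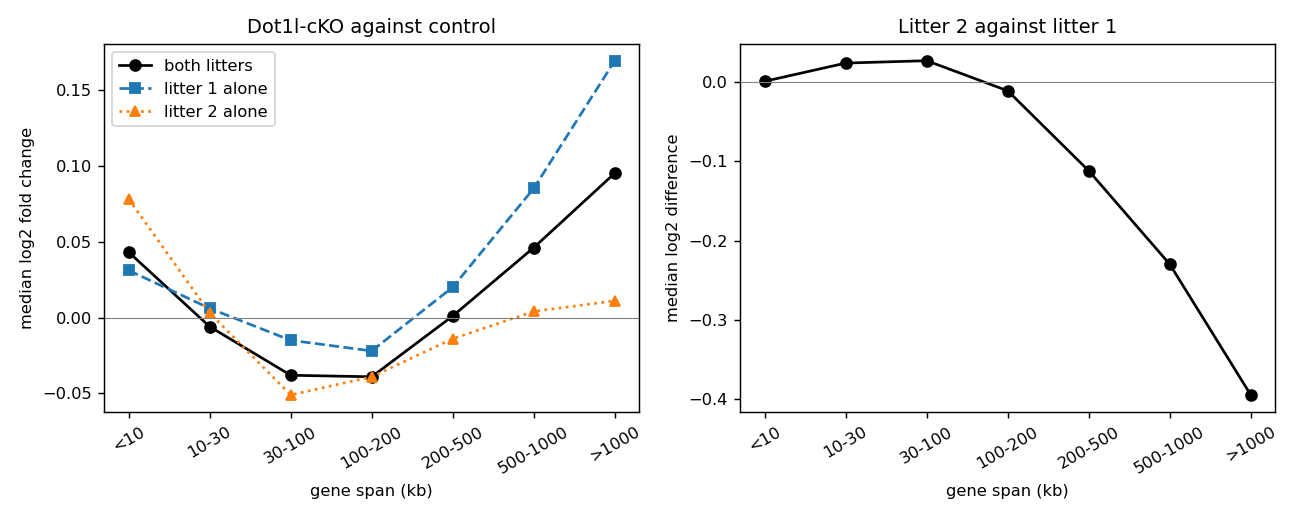
Median log2 fold change of *Dot1l*-cKO over control (left; both litters, litter 1 alone and litter 2 alone) and median log2 difference of litter 2 over litter 1 (right) against gene span in kb, for protein-coding autosomal genes at 1 CPM or more. The vertical scales differ. Over 1 Mb the genotype median is 0.10 and the litter median -0.40.

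By role, 40 of the 51 adhesion genes (78.4%) were lower in litter 2 and 2 higher, with a median log2 difference of -0.48. The share lower was 58.6% of the signalling genes, 58.1% of those with no role listed, 42.3% of the scaffold genes, 35% of the enzymes and others, and 30% of the transcription factor and RNA-binding genes, of which another 30% were higher, beside 17.8% lower and 16.9% higher over all tested genes. The differences between these lists were not tested. *Rbfox1* was at 160 to 179 CPM in litter 2 and 206 to 270 CPM in litter 1 (log2 difference -0.47, edgeR adjusted p = 4.63e-05). The litters did not overlap. *Sox6*, a transcription factor of neural progenitors and glia, went the other way, with 85.4 to 110 CPM in litter 2 and 56.7 to 71.7 CPM in litter 1 (0.59, adjusted p = 8.25e-06). All 8 genes that rose with the *Dot1l*-cKO label were lower in litter 2 and all 3 that fell were higher in it, each with an adjusted p below 0.05. Of all 177 genes 55.9% were lower and 9.6% higher in litter 2. No such share is given over all genes called by genotype, so this cannot be read as particular to long genes.

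Marker sums moved with the litter as well. The 8 neural progenitor markers summed to 2370 to 2740 CPM in litter 1 and 3260 to 3450 CPM in litter 2, and the 9 markers of dorsal root ganglion neurons to 795 to 1040 CPM and 523 to 686 CPM. The 8 general neuron markers summed to 7900 to 8600 CPM and 7630 to 8100 CPM. Within litter 1, progenitor markers were at 2370, 2730 and 2480 CPM in Mut_181-2, Mut_181-3 and Mut_181-7 and at 2660 to 2740 CPM in controls. The lowest sum was in Mut_181-2, which had the highest median over the 177 genes. In litter 2 the sums were 3260 and 3430 CPM in Mut_190-4 and Mut_190-6, whose medians were -0.04 and 0.04. They were 3270 and 3450 CPM in Ctr_190-5 and Ctr_190-7, whose medians were 0.05 and -0.05. There the lowest sum did not go with the highest median. Neuron markers in litter 1 were at 8600, 7900 and 8520 CPM against 7990 to 8230 CPM. Over both litters 1 of these 8 markers fell, the neurofilament gene *Nefl* (log2 fold change -0.22, edgeR adjusted p = 0.0284), and the median of the 8 was 0.04. None of the 177 genes is in these lists. No marker in the lists was at 0 in all embryos, and the part of cell composition in the litter and genotype values was not tested.

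Marker sums of other cell types are given by genotype within each litter. Of the 38 endothelial, ganglion, erythroid, muscle, mesenchyme and macrophage markers 0 passed the edgeR test, while 5 were higher and 5 lower at an unadjusted p under 0.05, 4 of the latter endothelial. DESeq2 called 1 ganglion marker higher and 1 endothelial marker lower, and no test was made of the sums. In litter 1 endothelial markers summed to 224 to 249 CPM in the *Dot1l*-cKO embryos and 279 to 322 CPM in controls, and in litter 2 to 195 to 247 and 184 to 231 CPM. In litter 2 dorsal root ganglion neuron markers were at 616 to 686 CPM against 523 to 533 CPM in controls, erythroid markers at 1240 to 1550 against 1030 to 1120 CPM and skeletal muscle markers at 25.6 to 28.0 against 95.3 to 96.6 CPM. In litter 1 ganglion markers were at 795 to 1010 against 983 to 1040 CPM, erythroid markers at 656 to 719 against 704 to 772 CPM and muscle markers at 5.56 to 73.2 against 5.10 to 96.5 CPM. Mesenchyme and meninges markers were at 1090 to 1720 against 1580 to 2120 CPM in litter 1 and at 1310 to 1490 against 1080 to 1260 CPM in litter 2, and macrophage markers at 64.5 to 69.1 against 69.0 to 78.3 CPM and at 62.8 to 72.8 against 50.7 to 65.6 CPM. Schwann cell precursor markers were at 782 to 849 against 828 to 879 CPM and at 707 to 708 against 693 to 726 CPM, and the median log2 fold change of these 7 genes was 0.26, with 1 that rose. The part of these cells in the genotype values was not tested either.

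Among the 177 genes the log2 fold change with genotype ran with some features of the gene. As a description over 177 genes that share the same 10 libraries, Spearman's rank correlation with the log2 fold change was 0.16 for span, 0.27 for the longest intron, -0.13 for exonic GC, -0.44 for exonic length and -0.37 for mean CPM. With litter 1 alone it was 0.20 for span, 0.32 for the longest intron, -0.23 for exonic GC, -0.44 for exonic length and -0.36 for mean CPM. With litter 2 alone it was 0.02, 0.09, 0.09, -0.27 and -0.27. Genes with fewer annotated exonic bases and low levels thus had the higher values in both litters, exonic GC turned sign between them, and span and the longest intron ran with the values mainly in litter 1.

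Shorter relatives of these families changed too. Of 137 genes of at most 500 kb whose symbols share a family prefix with the long genes, 13 rose and 3 fell (9.49 and 2.19%, beside 1.9 and 1.09% of all tested genes), with a median log2 fold change of 0.04 and medians of 0.03 in litter 1 and 0.07 in litter 2. Among those that rose were *Nrxn2* (125 kb, 0.40 ± 0.09, edgeR adjusted p = 0.0422), a neurexin, *Nlgn2* (14.7 kb, 0.20 ± 0.05, 0.0467), a neuroligin of inhibitory synapses, *Dlgap3* (67.8 kb, 0.68 ± 0.12, 0.0198), a postsynaptic scaffold, and *Lrrc4b* (34.3 kb, 0.65 ± 0.13, 0.0270), a synaptic adhesion molecule. *Celf3*, *Celf4* and *Celf5*, neuronal RNA-binding proteins, rose by 0.26, 0.33 and 0.37. The genes that fell were *Ctnna1*, *Ctnnal1* and *Pde3b* (-0.26, -0.23 and -0.27). The prefixes also catch genes that are no relatives, such as *Nrgn*, and the difference between the relatives and the long genes was not tested.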

How the data were processed

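The authors deposited a table of raw counts, 1 row per gene, made from polyA RNA reads trimmed with TrimGalore, aligned with STAR to mm10 and counted with featureCounts on GENCODE M18 within snakePipes, 1 column per embryo. How strand was treated in the counting is not given in the sources used here. The 177 genes and all lists were chosen with earlier results of these data known. Spans, exonic lengths and exonic GC came from GENCODE M21 (54079 of 54146 identifiers matched without version), RefSeq lengths and upstream sequences from RefSeq (GRCm38.p6). Counts were tested over all genes with edgeR 4.0.16 (R 4.3.3) by glmQLFit and glmQLFTest with TMM normalisation, the default expression filter and litter plus genotype in the model, at a Benjamini-Hochberg adjusted p of 0.05. Levels are TMM-normalised CPM, and the mean of 1 CPM in the rule uses total counts. A standard error is the size of the log2 fold change divided by the square root of F. DESeq2 1.42.0, limma 3.58.1 and other scalings, filters, litters, span limits and left-out embryos were alternatives. The edgeR and band steps were tested on simulated data. Genes were named if they passed the test, or were among the 5 largest changes without overlap within both litters in each direction, the 5 longest or the 5 highest per kb, or were on a list of 20 known long neural genes. Not every gene so named is reported here. All 20 within-group pairs of embryos had a chi-square per gene of 9.30 to 85.9, above sampling noise, so each embryo was 1 replicate. Embryos are single animals, and the p-values measure the spread between them.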

Additional observations from a re-analysis of the deposited data

Results flagged for a closer look

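In 4 genes over 500 kb every *Dot1l*-cKO embryo was on one side of the controls in litter 1 and on the other side in litter 2. This is 2.26% of the 177 genes, beside 1.98% of all tested genes. *Nlgn1*, a postsynaptic neuroligin, had log2 fold changes of 0.26 in litter 1 and -0.08 in litter 2 (difference -0.35, edgeR adjusted p for the interaction 0.484). *Rabgap1l*, a regulator of Rab GTPases, had 0.24 and -0.07 (difference -0.31, adjusted p = 0.484), and *Smyd3*, a lysine methyltransferase, 0.20 and -0.17 (difference -0.37, adjusted p = 0.472). *Sdk1*, an immunoglobulin adhesion gene, ran the other way with -0.42 and 0.33 (difference 0.74, adjusted p = 0.196; DESeq2 adjusted p = 0.00212). *Sdk1* was at most 76.3 CPM in the *Dot1l*-cKO embryos of litter 1 against 99.3, 81.3 and 112 CPM in controls, and at 64.7 and 65.6 CPM against 54.9 and 49.4 CPM in litter 2. None of the 4 passed the edgeR interaction test.

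Embryo Mut_181-3 of the *Dot1l*-cKO group stood far from the other 4 of its group relative to their range in *Cdk14*, at 80.3 CPM against 82.2 to 82.9 CPM, and in *Pcdh15*, at 16.1 CPM against 12.6 to 13.5 CPM. Among 76 groups looked at, such gaps arise by chance in about 1 of 20.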

How the results depend on the processing

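The 8 higher and 3 lower calls became 18 and 8 with DESeq2, 23 and 16 without the expression filter, 4 and 3 with limma-voom, 0 and 0 without the litter and in litter 1 alone, and 2 and 3 in litter 2 alone. The calls over all genes moved too, from 591 to 1492, 2201, 426, 0, 12 and 964 in that order. The members' shares were 10.2 and 4.52% with DESeq2 (all genes 4.74 and 3.56%), 13 and 9.04% without the filter (3.82 and 2.43%) and 2.26 and 1.69% with limma-voom (1.25 and 0.9%). In litter 2 alone they were 1.13 and 1.69% (3.98 and 1.16%), so there the share higher was below that of all genes. With the GC correction the calls were 12 and 3 (6.78 and 1.69%, beside 1.09 and 0.814% of all genes). Spans above 300 kb gave 14 and 6 calls among 438 genes (3.2 and 1.37%), and spans above 1 Mb 5 and 2 among 48 (10.4 and 4.17%), beside 4.52 and 1.69% of the 177. Leaving out single embryos, the higher calls ranged from 0 to 9 and the lower from 0 to 4. The median log2 fold change was 0.114 in litter 1 alone, 0.006 in litter 2 alone, 0.020 at spans above 300 kb (difference from the bands 0.043), and 0.025 to 0.080 with an embryo left out. It and the difference from the bands stayed positive in all alternatives run. Requiring a coding transcript over 500 kb left 165 of the 177 genes with 8 and 3 calls. Taking RefSeq length in place of span gave 175 genes, 166 of the 177 and 9 others, with 10 and 3 calls, of which 8 and 2 were in the 166. Both were chosen after seeing the data. The 0 interaction calls became 3 with DESeq2, 11 without the filter and 0 to 1 with an embryo left out. The 116 litter calls stayed between 106 and 122. The causes were not tested. Over the 38 named genes and all fits, 587 values kept their side of the threshold, 113 lost a call and 22 gained one, and no value that passed turned its sign. Bands of GC over the whole gene span were not run, for want of a genome sequence. No paired analysis was possible because the embryo numbers are not shared between the groups. The 11 calls, from 5 against 5 embryos of 2 litters, lie near the threshold and often changed when a single embryo was left out.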
